A study of Brachypodium distachyon with 89 samples.

Results

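The last hours of the night in low light were compared in 2 ecotypes of the grass Brachypodium distachyon, by setting ZT24 (the end of the night) against ZT20 (the middle of the night) within each ecotype. The comparison used 11 of the 89 libraries of the study, which were 3 at ZT20 and 2 at ZT24 of Bd21, and 3 at ZT20 and 3 at ZT24 of Bd21-3. ZT is the time in hours since lights on. At ZT20 and ZT24, and also at 3 earlier times, the study sampled both ecotypes in low light (LL), under submergence (S) and in normal growth (NG). The earlier times were ZT0, ZT8 and ZT16. All plants grew in 16 h of light and 8 h of dark, and gave aboveground green tissue in pools of 5 plants per library. They were 14 days old with 6 leaves when submergence began. LL plants stood at 70 µE m−2 s−1 in plastic tanks without water, beside those of the S plants, from ZT13 of the day before the sampled ZT0. Submergence began at the same hour, so every time sampled, ZT0 included, came after it. S plants received the same light under water, and NG plants stayed at 150 µE m−2 s−1. In its account of submergence, the study states that plants of 1 collection time shared a tank. Whether this held for the LL tanks is not said, so tank and time cannot be told apart. LL and S plants stood in separate tanks, so tank and treatment cannot be told apart either. The labels name the libraries of a group as biological replicates, and 1 library of Bd21 in LL at ZT24 was rejected by the study.

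Plants anticipate dawn through the circadian clock, a loop of transcription factors that repress one another in turn over the day. In Arabidopsis, from which the gene names used here come, the MYB-like factors LHY and CCA1 accumulate at dawn and repress evening genes such as TOC1 and GI. Some factors of the REVEILLE (RVE) family, RVE6 and RVE8 among them, and their coactivators, the LNK proteins, act in the opposite sense by switching evening genes on. Clock outputs that rise before dawn in many plants include antenna proteins of the photosystems and enzymes of starch turnover.

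The 11 libraries held 7889462 to 13236789 reads, and the value of 1 read lay between 0.0681 and 0.119 CPM, the unit of the table, which is reads scaled to a common effective library size. All 6 green tissue markers were found in each group, with summed levels of 15659 to 26545 CPM, while the 2 root markers summed to 10.9 to 37.9 CPM. No library was a copy of another, since counts of replicates differed by 2.91 to 33.5 times the sampling noise (chi-square per degree of freedom). A single axis held 67.0% of the squared deviations of libraries from their group means. On it, replicate 2 of Bd21 at ZT20, replicate 1 of Bd21-3 at ZT20 and replicate 3 of Bd21-3 at ZT24 lay farthest to one side, and each was the deepest of its group. Where the omission of these 3 libraries ended a call or moved a count, this is stated beside many, though not all, of the results.

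A gene was called when its log2 fold change (log2FC, ZT24 over ZT20 on the log2(CPM + 1) scale) was at least 1.5 in size, the limma adjusted p was under 5e-06 and its mean reached 15 CPM in 1 of the groups compared. In Bd21, 15 of 24109 genes rose (0.0622%) and 4 fell (0.0166%). In Bd21-3, 11 rose (0.0456%) and 3 fell (0.0124%). Of these, 10 rose in both ecotypes (0.0415%) and 3 fell in both (0.0124%). The 10 were matched to LHY, RVE2, RVE6, LNK1, CDF2 and BBX19, which have Arabidopsis symbols, and to AT1G42430, AT2G41250, AT3G14770 and AT4G28300, which have none in the table. The 4 without symbols are described although their values had been seen. The 3 that fell were matched to GI, FKF1 and APUM7. For all 13 genes, the ZT20 and ZT24 libraries did not overlap in either ecotype, as was also the case for 5.3% of all genes in the upward and 5.22% in the downward direction. Without the 3 libraries that stood apart, 6 genes rose and 1 fell in both ecotypes: LHY, RVE2, RVE6, LNK1, CDF2 and AT2G41250 rose, and APUM7 fell. Leaving out replicate 1 of Bd21 at ZT24 or replicate 3 of Bd21-3 at ZT24 likewise left 1 gene that fell in both. The first of these omissions left 1 fall in Bd21, the second 1 fall in Bd21-3, and leaving out replicate 2 of Bd21 at ZT20 left 2 in Bd21. LHY, RVE2, RVE6, CDF2, AT1G42430, AT2G41250 and APUM7 stayed called in both ecotypes whichever single LL library was left out.

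LHY (Bradi3g16515), the dawn repressor of the clock, had the largest rise in both ecotypes. Its level at ZT20 was 142, 153 and 139.5 CPM in Bd21 and 149, 141 and 148 CPM in Bd21-3. At ZT24 it was 2472 and 2674 CPM in Bd21 and 1946, 2000.5 and 2015 CPM in Bd21-3. The ZT20 levels of the ecotypes thus overlapped, each ZT24 library was far above them, and both Bd21 libraries at ZT24 were above the 3 of Bd21-3. The ratio of means was 17.8 in Bd21 and 13.6 in Bd21-3, with log2FC of 4.14 ± 0.21 (SE, limma adjusted p = 4e-24) and 3.76 ± 0.19 (SE, limma adjusted p = 1.8e-24).

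RVE2 (Bradi1g29680), a MYB-like factor close to LHY, rose from 50.7, 50.1 and 41.5 CPM to 403 and 401 CPM in Bd21. In Bd21-3 it rose from 38.8, 34.8 and 39.7 CPM to 239, 274 and 328 CPM. Its log2FC were 3.06 ± 0.17 (SE, limma adjusted p = 3.9e-22) and 2.85 ± 0.16 (SE, limma adjusted p = 4.7e-23). By log2FC, among the 10 risen genes only LHY rose more in Bd21-3, and only LHY and AT1G42430 in Bd21. The spread between the ZT24 libraries of RVE2 was wider in Bd21-3 than in Bd21.

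RVE6 (Bradi3g51757), in Arabidopsis one of the RVE factors that activate evening genes, stood at 46.0, 58.6 and 51.6 CPM at ZT20 and at 216 and 262 CPM at ZT24 in Bd21. In Bd21-3 it went from 61.8, 52.0 and 56.8 CPM to 203, 202 and 229.8 CPM. The log2FC were 2.18 ± 0.16 (SE, limma adjusted p = 2.8e-16) and 1.88 ± 0.15 (SE, limma adjusted p = 1.5e-15). Another gene matched to RVE6 (Bradi1g32330) had log2FC of 0.29 and 0.25 and was not called.

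LNK1 (Bradi1g60846), a coactivator that binds RVE factors, was low at ZT20, with 9.02, 7.77 and 6.46 CPM in Bd21 and 14.1, 9.21 and 14.5 CPM in Bd21-3. At ZT24 it reached 59.1 and 76.6 CPM in Bd21 and 47.3, 41.0 and 42.2 CPM in Bd21-3. The rise was 8.76-fold in Bd21 and 3.45-fold in Bd21-3, or log2FC of 2.98 ± 0.23 (SE, limma adjusted p = 1.1e-15) and 1.73 ± 0.21 (SE, limma adjusted p = 1.3e-08). The difference of 1.24 ± 0.31 (SE) between these changes did not pass the test of the ecotype difference (limma adjusted p = 0.859). Without replicate 2 of Bd21-3 at ZT20 the Bd21-3 rise narrowly missed the limit on p (log2FC 1.54, limma adjusted p = 5.11e-06).

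LNK2 (Bradi2g13610), another coactivator of the same family, was called in Bd21 alone. It went from 4.12, 5.40 and 3.62 CPM to 16.9 and 20.9 CPM in Bd21, and from 10.02, 6.97 and 8.58 CPM to 16.0, 16.1 and 16.3 CPM in Bd21-3. The libraries did not overlap in either ecotype, and the log2FC were 1.897 (limma adjusted p = 2.8e-07) and 0.86 (limma adjusted p = 0.0209). The Bd21 call was lost without replicate 1 or 3 at ZT20 or either replicate at ZT24, with log2FC of 1.75 to 2.04 (limma adjusted p up to 0.000647). RVE1 (Bradi3g51960), an RVE factor linked in Arabidopsis to auxin and growth, lay just outside the limit on p. Its levels were 18.6, 11.1 and 16.7 CPM at ZT20 and 112 and 89.4 CPM at ZT24 in Bd21, and 14.4, 20.9 and 21.9 CPM against 107, 103 and 87.3 CPM in Bd21-3. Its log2FC were 2.648 ± 0.41 (SE, limma adjusted p = 8e-06) and 2.33 ± 0.36 (SE, limma adjusted p = 1.2e-05). Another gene matched to RVE1 (Bradi5g19380) had 0.53 and 0.67. Of the 11 tested members of the morning clock list, 5 rose in Bd21 and 4 in Bd21-3, against 0.0622% and 0.0456% of all genes, and none fell in either ecotype at these limits. The medians of the list were 1.897 and 0.86, against −0.02 over all genes in each ecotype. The members matched to PRR7 were not called and had log2FC of −0.38 and −0.70 for Bradi1g16490 and 0.01 and −0.78 for Bradi1g65910. The match to RVE8 (Bradi2g00423), an activator of evening genes, was close to undetected, with at most 0.83 CPM in any of the 11 libraries.

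**Figure D1:**
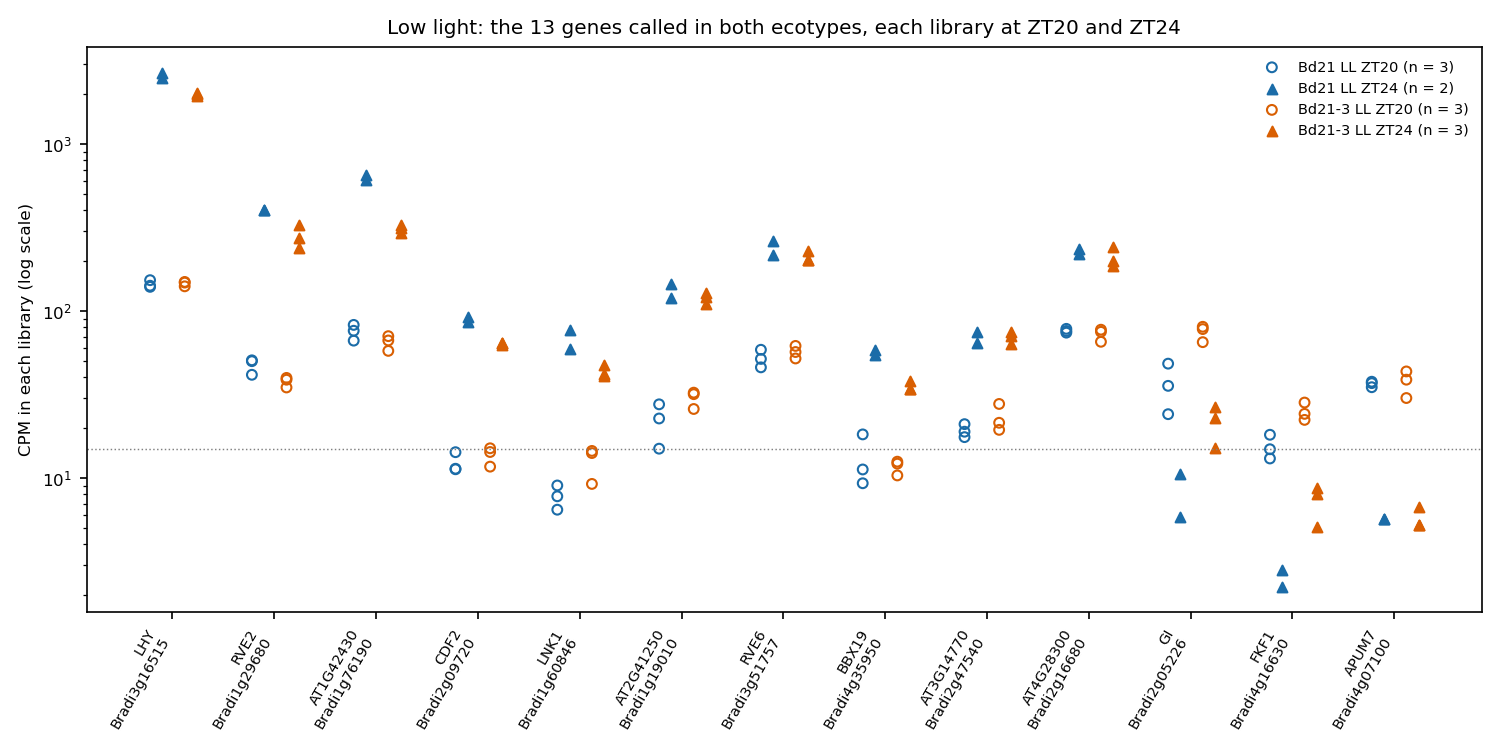
Level of each of the 13 genes called in both ecotypes, in CPM on a log axis, in the LL libraries at ZT20 and ZT24 of Bd21 and Bd21-3. Each point is 1 library, and in each of the 13 genes the ZT24 points lie apart from the ZT20 points in both ecotypes.

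The remaining risen genes with a symbol encode regulators of flowering time by day length. CDF2 (Bradi2g09720), a DOF factor that in Arabidopsis represses the flowering gene CO, rose from 11.4, 14.3 and 11.3 CPM to 91.8 and 85.8 CPM in Bd21. In Bd21-3 it rose from 15.1, 11.7 and 14.3 CPM to 64.7, 62.6 and 64.4 CPM. These are log2FC of 2.76 ± 0.16 (SE, limma adjusted p = 2.5e-21) and 2.15 ± 0.15 (SE, limma adjusted p = 3e-18), and the replicates of each group were close. BBX19 (Bradi4g35950), a B-box protein that acts with CO in Arabidopsis, went from 11.2, 18.2 and 9.30 CPM to 54.6 and 58.2 CPM in Bd21. In Bd21-3 it went from 10.4, 12.5 and 12.2 CPM to 33.9, 34.0 and 38.2 CPM. Its log2FC of 2.09 ± 0.19 (SE, limma adjusted p = 1.2e-12) was well past the limit in Bd21, while that of 1.52 ± 0.17 (SE, limma adjusted p = 2.9e-09) in Bd21-3 lay just inside it. BBX19 lost its call in Bd21-3 without the 3 libraries that stood apart, and also without replicate 1 at ZT20 (log2FC 1.45) or replicate 3 at ZT24 (1.47) alone. CDF2 and BBX19 were the only members called among the 31 tested B-box and CDF factors, whose medians were 0.07 and 0.03.

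Another pair of risen genes belongs to starch and sugar handling by their matches. AT1G42430 (Bradi1g76190) is known in Arabidopsis as ESV1, a protein that binds starch granules and guards against their early breakdown. It rose from 76.1, 82.6 and 66.5 CPM to 654 and 613 CPM in Bd21, and from 57.7, 66.6 and 70.7 CPM to 315, 328 and 292 CPM in Bd21-3. The rise was 8.44-fold and 4.798-fold, with log2FC of 3.07 ± 0.31 (SE, limma adjusted p = 5.8e-11) and 2.25 ± 0.28 (SE, limma adjusted p = 4.1e-08). The call in Bd21-3 was lost without the 3 libraries that stood apart. AT3G14770 (Bradi2g47540), a member of the Nodulin MtN3 family to which the SWEET sugar transporters belong, rose from 18.9, 17.6 and 21.003 CPM to 75.2 and 64.4 CPM in Bd21. In Bd21-3 it rose from 19.4, 27.8 and 21.4 CPM to 71.1, 74.5 and 63.0 CPM, and its log2FC were 1.81 ± 0.23 (SE, limma adjusted p = 4.9e-08) and 1.58 ± 0.20 (SE, limma adjusted p = 1.1e-07). The Bd21 call was lost without either ZT24 library (limma adjusted p = 0.000159 and 1.14e-05), and the Bd21-3 call without replicate 1 or 3 at ZT20 or replicate 2 at ZT24 (log2FC 1.47 to 1.54). The Bd21-3 call was also lost without the 3 libraries that stood apart. None of the 30 genes of starch breakdown or the 24 of starch synthesis on the fixed lists was called in either ecotype, with medians between −0.12 and 0.04.

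Little is said by the table of the last pair. AT2G41250 (Bradi1g19010), described as a haloacid dehalogenase-like hydrolase, rose from 27.6, 22.7 and 15.0 CPM to 145 and 120.1 CPM in Bd21 and from 25.9, 31.8 and 32.4 CPM to 110.3, 122 and 128 CPM in Bd21-3. The log2FC were 2.59 ± 0.23 (SE, limma adjusted p = 2.6e-13) and 1.97 ± 0.21 (SE, limma adjusted p = 1.7e-10). AT4G28300 (Bradi2g16680), a protein with a domain of unknown function, had the smallest rise of the 10 in both ecotypes. It went from 75.9, 78.2 and 74.2 CPM to 235 and 219 CPM in Bd21 and from 75.1, 65.4 and 77.3 CPM to 187, 200.5 and 241 CPM in Bd21-3. Its log2FC of 1.56 ± 0.19 (SE, limma adjusted p = 3.5e-08) and 1.51 ± 0.17 (SE, limma adjusted p = 2.9e-09) lay at the limit on fold, and without the 3 libraries the call in Bd21-3 was lost. So it was without replicate 2 at ZT20 (1.44) or replicate 3 at ZT24 (1.41) alone, and in Bd21 without either ZT24 library (limma adjusted p = 7.43e-05 and 1.29e-05).

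GI and FKF1, partners in the blue light complex that degrades CDF proteins in Arabidopsis, fell over the same hours. GI (Bradi2g05226) dropped from 35.6, 48.4 and 24.1 CPM to 5.86 and 10.6 CPM in Bd21 and from 77.9, 65.1 and 80.4 CPM to 26.4, 23.0 and 15.2 CPM in Bd21-3. Its ZT20 level was 4.38 times that at ZT24 in Bd21 and 3.46 times in Bd21-3, with log2FC of −2.0 ± 0.25 (SE, limma adjusted p = 4.9e-08) and −1.77 ± 0.23 (SE, limma adjusted p = 6.5e-08). At both times GI was higher in every Bd21-3 library than in any Bd21 library. FKF1 (Bradi4g16630), the photoreceptor of the complex, dropped from 18.1, 14.9 and 13.1 CPM to 2.24 and 2.81 CPM in Bd21 and from 22.3, 24.2 and 28.3 CPM to 7.98, 8.72 and 5.08 CPM in Bd21-3. Its log2FC were −2.21 ± 0.28 (SE, limma adjusted p = 4.9e-08) and −1.67 ± 0.25 (SE, limma adjusted p = 3.8e-06). The second of these p-values lay close to the limit, and the call of FKF1 in Bd21-3 was lost in 17 of 30 other settings, among them edgeR and the omission of any 1 of the 6 Bd21-3 libraries (log2FC −1.80 to −1.47). In Bd21 it was lost without either ZT24 library (limma adjusted p = 0.000142 and 1.29e-05) and without replicate 1 at ZT20 (log2FC −2.09, limma adjusted p = 3.24e-06), whose omission took the ZT20 mean under 15 CPM. The calls of GI were lost in both ecotypes without the 3 libraries that stood apart. Single libraries that decided them were replicate 2 at ZT20 (log2FC −1.77 without it) and replicate 1 at ZT24 (−1.62) in Bd21 and replicate 3 at ZT24 (−1.55) in Bd21-3.

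APUM7 (Bradi4g07100), matched to a pumilio RNA-binding protein, kept its call without those libraries. It fell from 35.0, 37.0 and 37.7 CPM to 5.65 and 5.70 CPM in Bd21 and from 30.1, 43.5 and 38.8 CPM to 5.24, 6.66 and 5.24 CPM in Bd21-3. The levels of the ecotypes overlapped at both times. The ZT20 level was 6.44 and 6.56 times that at ZT24, and the log2FC were −2.49 ± 0.27 (SE, limma adjusted p = 8.1e-10) and −2.51 ± 0.25 (SE, limma adjusted p = 1.7e-11).

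Other evening genes fell less or were called in 1 ecotype. COR27 (Bradi1g72390), a night-time repressor of clock genes in Arabidopsis, was called in Bd21, with log2FC of −2.44 (limma adjusted p = 1.7e-07), and reached −1.66 in Bd21-3 (limma adjusted p = 0.0001). Its ZT20 libraries in Bd21 held 14.9, 31.8 and 11.02 CPM and its ZT24 libraries 1.60 and 3.45 CPM, and the Bd21 call was lost without replicate 2 at ZT20 (log2FC −2.02) or replicate 1 at ZT24 (−2.05). TOC1 (Bradi3g48880), the evening repressor of LHY, went from 54.3, 74.4 and 58.8 CPM to 28.4 and 28.6 CPM in Bd21 and from 66.9, 67.4 and 70.4 CPM to 39.4, 40.4 and 41.5 CPM in Bd21-3. Its libraries did not overlap, and its log2FC of −1.09 (limma adjusted p = 5.1e-08) and −0.74 (limma adjusted p = 4.8e-05) stayed under the limit on fold. Over the 16 tested members of the evening clock list, 3 fell in Bd21 and 2 in Bd21-3, against 0.0166% and 0.0124% of all genes, and the medians were −0.37 and −0.56, against −0.02 over all genes in each ecotype. Without the 3 libraries that stood apart, GI lost its call in both ecotypes, COR27 in Bd21 and FKF1 in Bd21-3. FKF1 in Bd21 was then the only fall of the list still called. The list medians were then −0.25 and −0.53. LUX (Bradi2g62067), the DNA-binding member of the evening complex, had −1.01 and −0.86, while another LUX match (Bradi2g54791) had −0.20 and −0.35. The 2 genes matched to ZTL, a blue light receptor related to FKF1, had 0.27 and 0.29 (Bradi1g33610) and 0.05 and 0.19 (Bradi3g04040). The remaining members were not called and missed an adjusted p of 0.05 in both ecotypes. The matches to PRR5, a repressor of LHY and CCA1 in Arabidopsis, had −0.29 and −0.39 (Bradi4g24967, at 55.8 to 89.998 CPM) and −0.09 and −0.79 (Bradi4g36077, under 5 CPM). Those to EFL4, a relative of the evening complex protein ELF4, had 0.11 and −0.24 (Bradi1g60090), −0.44 and −0.48 (Bradi4g13227) and −0.30 and −0.61 (Bradi4g29580). LKP2 (Bradi3g04026), related to ZTL, had −0.46 and −0.52 at levels near 1 CPM or lower, CHE (Bradi5g16270), a TCP factor that represses CCA1 in Arabidopsis, had −0.72 and −0.64, and another COR27 match (Bradi1g60490) had 0.14 and 0.07.

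The changes of the ecotypes had the same sign in all 20 genes called in at least 1 of them. Of these 20, 19 had the larger change in Bd21, and so had all 10 that rose in both. At wider limits (a log2FC of at least 1 and a limma adjusted p under 0.05, chosen after seeing the data), all 145 genes called in either ecotype had the same sign in both, and 72 had the larger change in Bd21. The genes were chosen by these same changes, so the counts only describe them. The test of the difference itself called 0 genes in either direction with limma and 0 with edgeR. An unadjusted p under 0.05 was found for 359 genes with limma (1.49%) and 411 with edgeR.

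**Figure D2:**
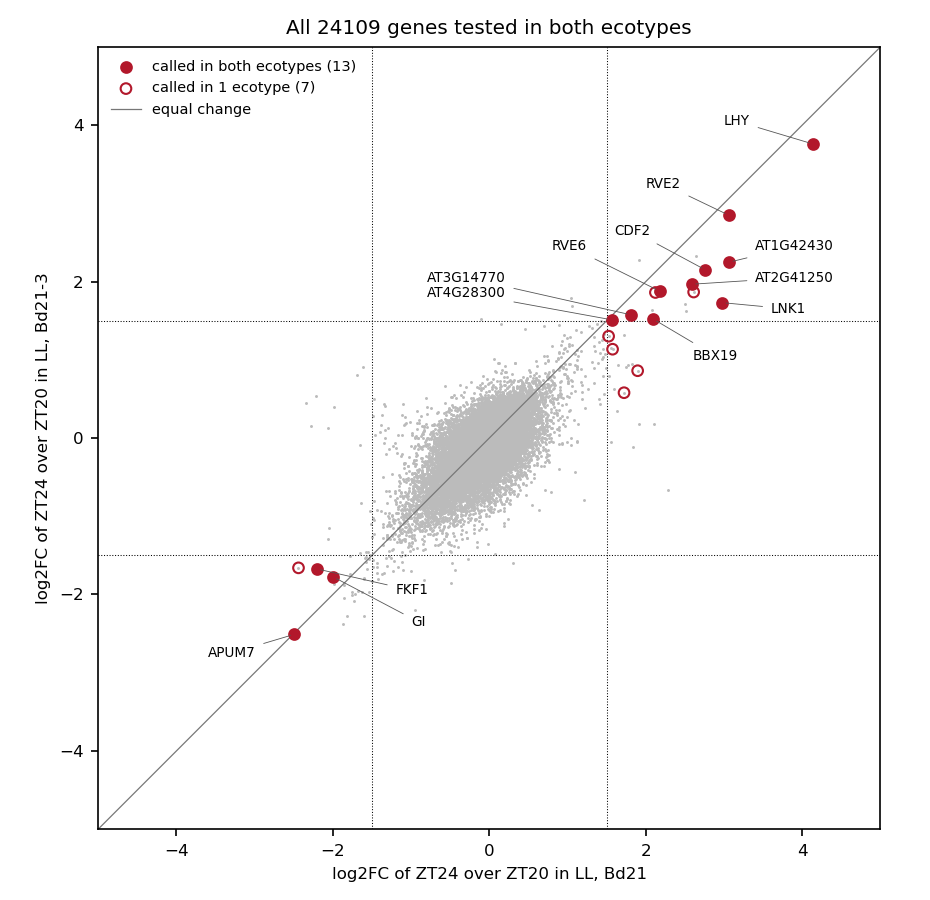
Log2FC from ZT20 to ZT24 in LL in Bd21 (x axis) and Bd21-3 (y axis) for all genes tested, with the genes called in both ecotypes and in 1 ecotype marked, dotted lines at the fold limit and a line of equal change. The 10 risen genes lie below the line of equal change, with LHY at 4.14 and 3.76 the farthest from 0.

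A single gene passed an adjusted p of 0.05 for the ecotype difference at any fold. ABA1 (Bradi5g11750), matched to zeaxanthin epoxidase of the path to abscisic acid and chosen after its values were seen, rose from 24.9, 22.7 and 21.1 CPM to 74.4 and 81.3 CPM in Bd21. In Bd21-3 it went from 34.8, 40.5 and 40.0 CPM to 62.2, 63.3 and 49.0 CPM, so that Bd21 was lower than Bd21-3 at ZT20 and higher at ZT24. The log2FC were 1.72 ± 0.15 (SE, limma adjusted p = 1.8e-13) and 0.58 ± 0.14 (SE, limma adjusted p = 0.00681), and the Bd21-3 change minus the Bd21 change was −1.14 ± 0.20 (SE, limma adjusted p = 0.0100). Without the 3 libraries that stood apart, this difference was −1.09 ± 0.23 (SE, limma adjusted p = 0.377), and no gene passed. In NG, whose libraries are separate, the changes were 2.07 in Bd21 and 0.88 in Bd21-3, a difference of −1.19 ± 0.19 (SE, limma adjusted p = 0.00097). In S the difference was 0.44 (limma adjusted p = 0.839).

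The other genes called in 1 ecotype alone, also chosen after their values were seen, were split largely by the limits. ATGPX6 (Bradi5g26725), matched to a glutathione peroxidase, had log2FC of 2.61 and 1.87 (limma adjusted p = 1.1e-12 and 3.9e-09) and missed the call in Bd21-3 because its mean there was 10.6 CPM. CYP79B2 (Bradi5g00980), matched to a cytochrome P450 of tryptophan metabolism, had 2.124 and 1.861 and missed it in Bd21 with a mean of 11.99 CPM. AT1G62250 (Bradi1g08907) had 1.53 and 1.302, and AT1G35190 (Bradi2g05600), an oxygenase of the 2-oxoglutarate family, had 1.58 and 1.14. The Bd21 call of AT1G62250 was lost without replicate 1 or 3 at ZT20 or either ZT24 library (log2FC 1.46 to 1.53, limma adjusted p up to 0.000453), and that of AT1G35190 without either ZT24 library (limma adjusted p = 3.1e-05 and 5.76e-05). CYP79B2 lost its Bd21-3 call without replicate 1 at ZT20 (log2FC 1.67) or replicate 3 at ZT24 (1.73), and also without the 3 libraries that stood apart.

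The same 13 genes were then read in the NG and S libraries, which played no part in choosing them other than through the shared estimate of spread. In NG, 17 genes rose in both ecotypes (0.0705%) and 1 fell in both (0.00415%). The 10 genes risen in LL rose in NG as well: 9 of 10 were called in Bd21 and 9 of 10 in Bd21-3, where 0.104% and 0.0954% of all genes were called as risen, and all 10 passed a limma adjusted p of 0.05 in each ecotype. Their log2FC in NG ranged from 1.41 to 3.52 in Bd21 and from 1.59 to 3.65 in Bd21-3. LHY in NG went from 214, 209.6 and 190.0 CPM to 2138, 2436 and 2522 CPM in Bd21 and from 211, 183 and 198 CPM to 2231, 2862 and 2393 CPM in Bd21-3. Of the 3 fallen genes, 1 was called as fallen in NG in Bd21 and all 3 in Bd21-3, where 0.0083% and 0.0249% of all genes were called, and all 3 passed an adjusted p of 0.05 in both ecotypes.

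The difference between the LL and NG changes was tested in the same fit. The LL change minus the NG change, as the mean of both ecotypes, ranged from −0.64 to 0.84, and none of the 13 was called. RVE2 was the only one with a limma adjusted p under 0.05, with a rise larger in LL by 0.84 ± 0.16 (SE, limma adjusted p = 0.00385). Its NG changes were 2.08 and 2.15, against 3.06 and 2.85 in LL. AT1G42430 had NG changes of 2.54 and 1.59, at lower levels than in LL, and its NG libraries held 148, 166 and 206 CPM at ZT24 in Bd21 and 87.4, 198 and 98.3 CPM in Bd21-3.

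Under submergence no rise of these genes was detected. None of the 10 genes passed an adjusted p of 0.05 upward in S in either ecotype, and their changes ranged from −0.76 to 0.31 in Bd21 and from −0.34 to −0.03 in Bd21-3. In S as a whole, limma and edgeR called 0 risen genes in either ecotype, while an unadjusted p under 0.05 was found for 3530 genes (Bd21) and 1737 genes (Bd21-3) with limma and for 3715 and 1740 with edgeR. LHY in S held 226, 331 and 226 CPM at ZT20 and 194, 174 and 216 CPM at ZT24 in Bd21. In Bd21-3 it held 217, 231 and 317 CPM and 224, 234 and 255 CPM. These levels were above those of LL at ZT20 and far under those of LL at ZT24.

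For CDF2, LNK1, BBX19, RVE6 and AT2G41250, submerged plants already held at ZT20 more than LL plants did at that time. CDF2 in S was 47.2, 62.0 and 54.6 CPM at ZT20 and 41.3, 53.7 and 47.6 CPM at ZT24 in Bd21, and LNK1 was 96.1, 142 and 100.1 CPM against 80.1, 67.9 and 85.4 CPM. The sugar transporter match AT3G14770 was low in S at both times, between 4.33 and 16.2 CPM. Of the fallen genes, GI in S dropped from 196, 249.7 and 321 CPM to 72.7, 99.1 and 126 CPM in Bd21 (log2FC −1.36, limma adjusted p = 4.1e-05), while in Bd21-3 it had −0.29. FKF1 in S dropped from 146, 143 and 212 CPM to 88.9, 83.2 and 97.2 CPM in Bd21, without overlap (log2FC −0.86, limma adjusted p = 0.0333), and in Bd21-3, at 148 to 201 CPM over both times, it had −0.18 (limma adjusted p = 1). All of these levels were above those of the same gene in the LL libraries of the same ecotype at ZT20 and ZT24. APUM7 was nearly absent in S, with 0.14 to 1.96 CPM.

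The LL change exceeded the S change in all 10 risen genes at the call limits, by 1.58 (AT4G28300) to 4.19 (LHY). Over all genes, 20 had a higher change in LL than in S (0.083%) and 2 a lower one (0.0083%). Since the 13 genes were chosen by their LL change, which is part of this difference, these values describe them and the S changes are the measure that stands apart from the choice.

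**Figure D3:**
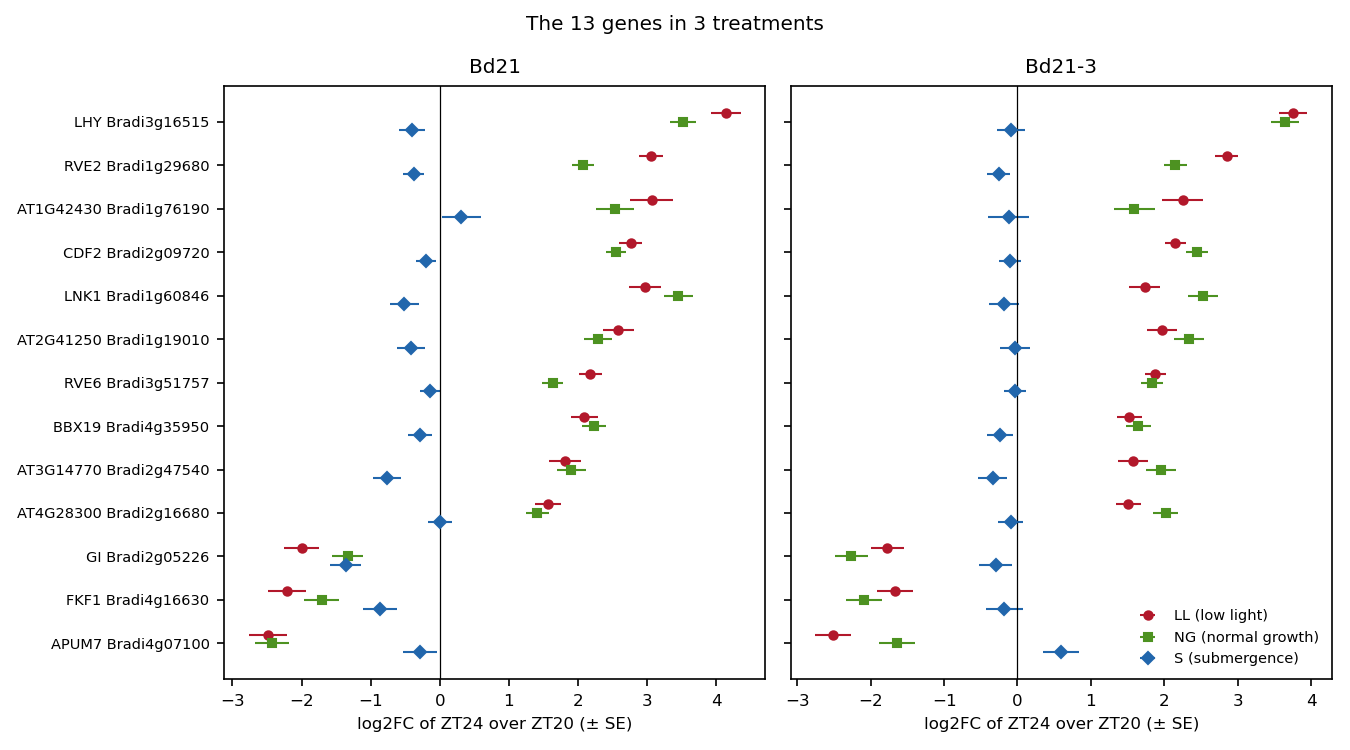
Log2FC from ZT20 to ZT24 of the 13 genes in LL, NG and S, with standard errors, in Bd21 and Bd21-3. LL and NG changes have the same sign in each gene, while the S changes of the 10 risen genes lie between −0.76 and 0.31.

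The levels at the other times in LL, given as a description, place the 4 h within the day. In Bd21, LHY averaged 3418 CPM at ZT0, 842 at ZT8, 27.4 at ZT16, 145 at ZT20 and 2573 at ZT24, and in Bd21-3 it averaged 3056, 1914, 74.1, 146 and 1987 CPM. The highest of the 5 times was thus the first dawn, and the lowest the start of the night. AT2G41250, CDF2, AT4G28300, AT3G14770 and RVE6 were likewise highest at ZT0 in both ecotypes. AT1G42430 was highest at ZT24 in both, with 633.5 CPM in Bd21 and 312 in Bd21-3 against 278 and 159.8 at ZT0. RVE2 was highest at ZT24 in Bd21 (402 CPM, 334 at ZT0) and at ZT0 in Bd21-3 (295 CPM, 280.4 at ZT24). LNK1 and BBX19 were highest at ZT8 in both ecotypes, at 464.5 and 609.8 CPM for LNK1 and at 97.4 and 111 CPM for BBX19. Of the falling genes, GI was highest at ZT8 (487 and 402 CPM), and FKF1 and APUM7 were highest at ZT16, at 50.5 and 62.2 CPM for FKF1 and 70.8 and 54.1 CPM for APUM7.

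**Figure D4:**
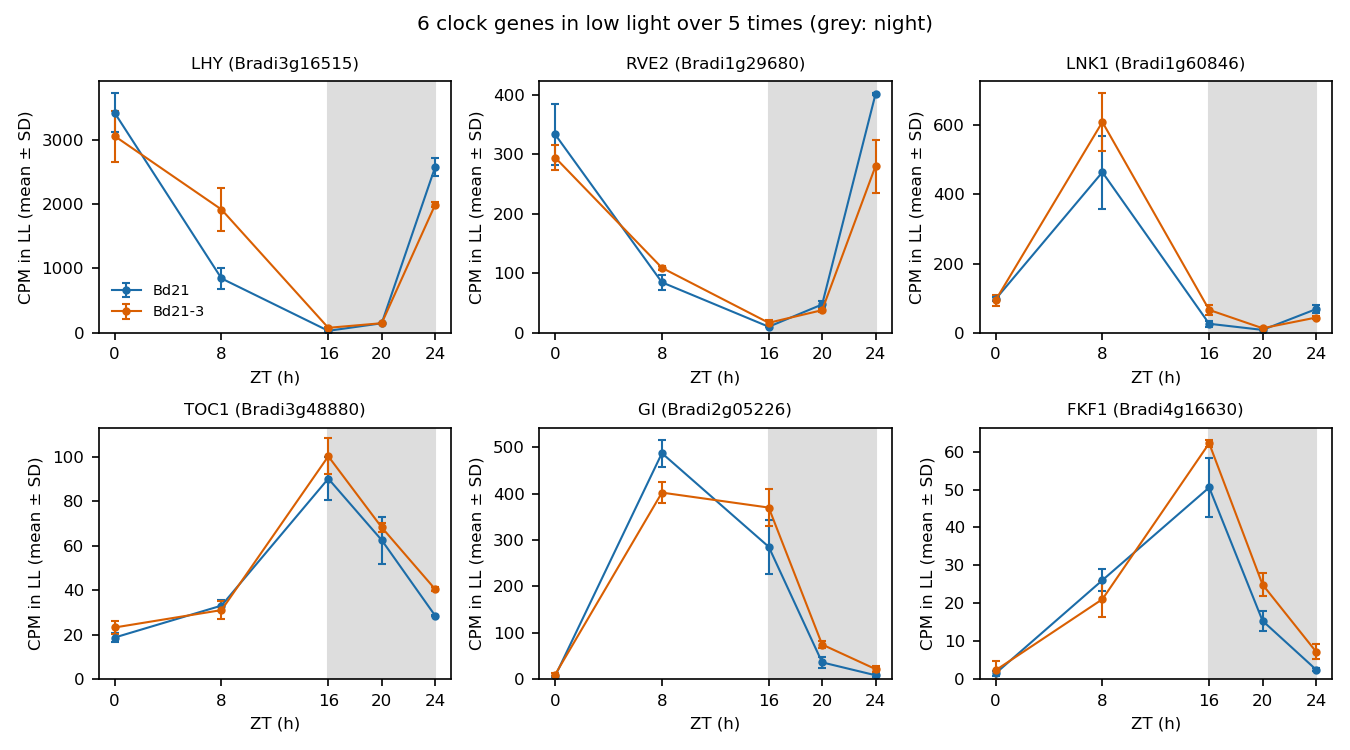
Mean level in CPM (linear axis, with SD) of LHY, RVE2, LNK1, TOC1, GI and FKF1 in LL in Bd21 and Bd21-3. The 5 times run from ZT0 to ZT24, with the night in grey. LHY, RVE2 and LNK1 climb between ZT20 and ZT24, from ZT20 means of 7.7 to 146 CPM, and TOC1, GI and FKF1 descend.

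At the wider limits, 48 genes rose in Bd21 (0.199%) and 45 in Bd21-3 (0.187%), 32 of them in both (0.133%). In the other direction 32 fell in Bd21 (0.133%) and 73 in Bd21-3 (0.303%), 21 of them in both (0.0871%). Without the 3 libraries that stood apart, 41 rose in Bd21, 26 in Bd21-3 and 21 in both. The falls then numbered 21 in Bd21, 37 in Bd21-3 and 15 in both. With all libraries and no limit on fold, 117 rose (0.485%) and 97 fell (0.402%) in Bd21, 233 rose (0.966%) and 241 fell (1%) in Bd21-3, and 79 rose (0.328%) and 74 fell (0.307%) in both. The examples that follow were chosen after their values were seen. Both genes matched to DGD1, a galactolipid synthase of chloroplast membranes, rose, with log2FC of 1.02 and 1.18 (Bradi3g45180) and 1.34 and 1.298 (Bradi5g09680). VTC2 (Bradi4g22700), an enzyme of ascorbate synthesis, rose from 77.7, 80.0 and 90.6 CPM to 235 and 226 CPM in Bd21 and from 60.7, 65.4 and 68.2 CPM to 182, 168 and 145 CPM in Bd21-3. Its log2FC of 1.47 and 1.33 had limma adjusted p-values of 2.8e-07 and 2e-07, and DGD1 and VTC2 rose in NG as well, by 1.04 to 2.01. AT3G25570 (Bradi3g48490), matched to an S-adenosylmethionine decarboxylase of polyamine synthesis, rose by 1.119 and 1.13.

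Among those that fell at the wider limits, AT3G20810 (Bradi3g39950), matched to an oxygenase known in Arabidopsis as the clock-linked JMJ30, had −1.24 and −1.43. It stood at 28.8, 24.7 and 29.7 CPM at ZT20 and 10.4 and 11.8 CPM at ZT24 in Bd21, and at 42.4, 42.6 and 43.7 CPM and 17.7, 15.3 and 13.1 CPM in Bd21-3. NMT1 (Bradi2g17680), a methyltransferase of phosphocholine synthesis, fell by 1.36 and 1.14, and ATRD22 (Bradi1g50390), matched to a drought-responsive protein with a BURP domain, fell by 1.47 and 1.04 on the log2 scale.

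No antenna gene was called at the main limits, but 3 of 24 rose in both ecotypes at the wider ones, against 0.133% of all genes. LHCB2.3 (Bradi1g15290), a chlorophyll-binding protein of the photosystem II antenna, rose from 103, 91.7 and 97.7 CPM to 645 and 489 CPM in Bd21 and from 129.7, 225 and 159 CPM to 626, 632 and 349.6 CPM in Bd21-3. Its log2FC were 2.52 (limma adjusted p = 5.7e-06) and 1.63 (limma adjusted p = 0.00199). LHCB1.5 (Bradi4g37210) had 2.499 and 1.72, and LHCB5 (Bradi4g21170), a minor antenna protein, had 1.56 and 1.15. In each of the 3, replicate 3 of Bd21-3 at ZT24, a library that stood apart, had the lowest ZT24 value. The median of the antenna list was 0.69 in Bd21 and −0.00 in Bd21-3 in LL, 1.66 and 0.56 in NG, and −0.77 and −0.03 in S. The Bd21-3 change was the lower in 24 of 24 antenna genes, against 12415 of the 24109 genes tested, and none of the 24 had an adjusted p under 0.05 for this difference. Without the 3 libraries that stood apart, the LL medians were 0.75 and 0.07, the Bd21-3 change was the lower in 20 of 24, and LHCB5 no longer rose in Bd21-3 (log2FC 1.34, limma adjusted p = 0.0696).

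Most histone genes, whose proteins package DNA, had negative changes in LL. The median log2FC of the 42 genes described as histones or, for 3 of them, as histone methyltransferases was −0.74 in Bd21 and −0.78 in Bd21-3, against 0.21 and −0.00 in NG and −0.19 and −0.01 in S. Changes were negative in both ecotypes for 38 of 42, against 9375 of 24109 genes. No histone was called at the main limits, and at the wider ones 10 fell in Bd21-3 and 0 in Bd21, where 0.303% and 0.133% of all genes did. Without the 3 libraries that stood apart, 1 fell in each ecotype, the medians were −0.78 in Bd21 and −0.87 in Bd21-3, and 38 of 42 were again negative in both. Their summed level was 1630 to 1906 CPM at ZT20 and 1160 to 1471 CPM at ZT24 in Bd21, without overlap. In Bd21-3 it was 1345 to 2330 CPM and 1157 to 1520 CPM, and the groups overlapped through replicate 1 at ZT20. The 14 dividing cell markers had lower summed levels at ZT24 as well, going from 163–195 to 131–136 CPM in Bd21 and from 148–193 to 99.5–110.3 CPM in Bd21-3, and 1 of the 14 was at 0 in all libraries of a group, in each group but Bd21 at ZT24. Fewer dividing cells and less RNA per dividing cell cannot be told apart in whole tissue, and the part of these markers in the histone changes was not tested.

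**Figure D5:**
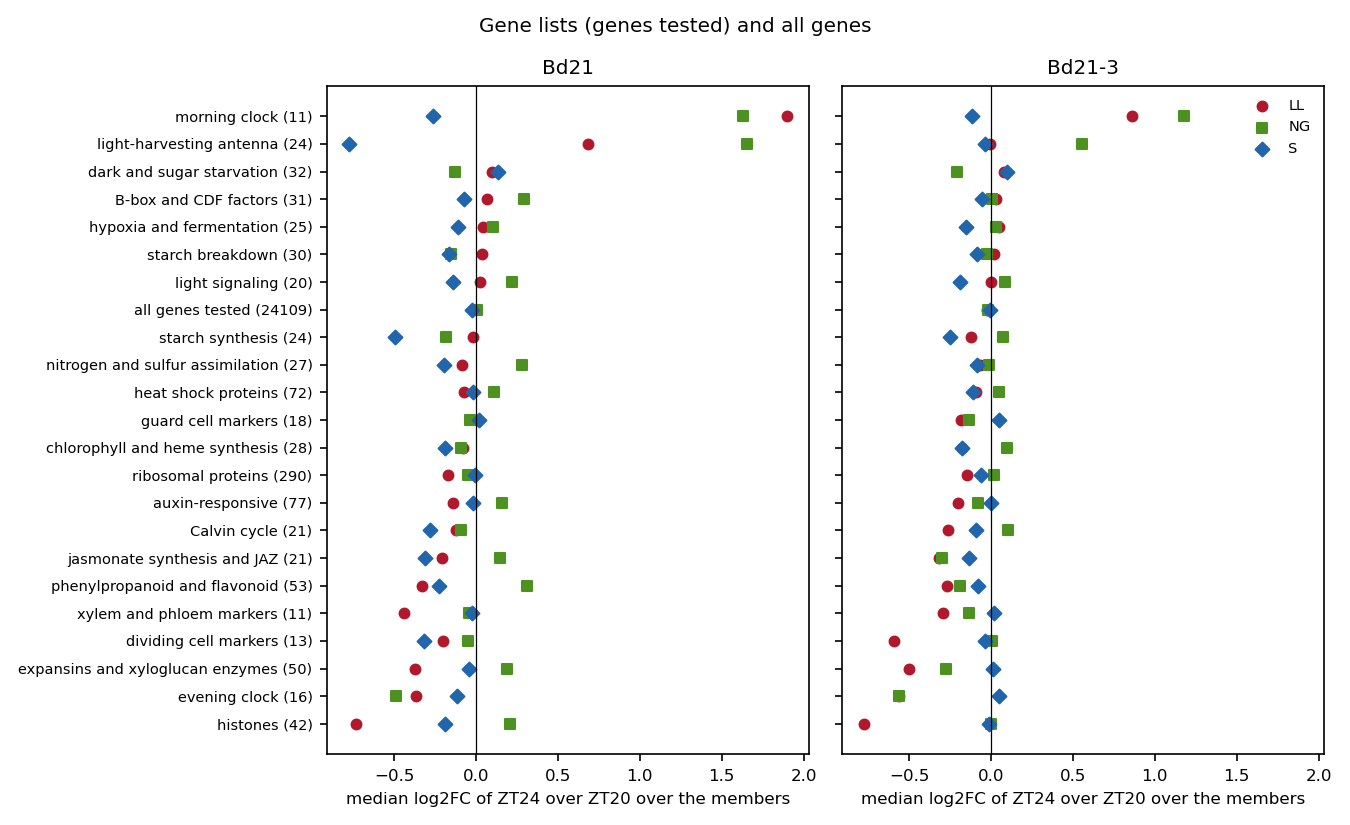
Median log2FC from ZT20 to ZT24 of each gene list in LL, NG and S, in Bd21 and Bd21-3. The morning clock list has the highest LL median (1.897 and 0.86), and the histones the lowest (−0.74 and −0.78).

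For histones, the difference between LL and NG was tested gene by gene. The LL change was the lower in 40 of 42, against 12565 of the 24109 genes tested. A limma adjusted p under 0.05 for this difference was found in 3 of 42 (7.14%), against 0.22% of all genes. These were a histone H2A (HTA6, Bradi4g28560) with −1.84 (limma adjusted p = 0.0248), a histone H4 (AT3G53730, Bradi1g68190) with −1.87 (limma adjusted p = 0.029) and a histone H2B (Bradi2g54540) with −1.298 (limma adjusted p = 0.00558). In LL at ZT20 and ZT24, the H2A gene averaged 6.56 and 1.55 CPM in Bd21 and 8.55 and 1.63 CPM in Bd21-3. The H4 gene averaged 6.73 and 2.00 CPM in Bd21 and 7.07 and 1.44 CPM in Bd21-3. Both reached the mean of 15 CPM only through NG at ZT24 in Bd21, and the H2B gene only through NG, so the count only describes them. The H2B gene held 8.02, 18.1 and 10.1 CPM at ZT20 and 4.79 and 4.57 CPM at ZT24 in LL in Bd21, and 18.4, 18.6 and 17.8 CPM against 18.7, 21.5 and 20.96 CPM in NG. Without the 3 libraries that stood apart, the LL change was the lower in 41 of 42, against 12819 of 24109 genes. The H4 gene then no longer passed (−1.80, limma adjusted p = 0.114).

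Over all genes, no change differed between LL and NG at the main limits, by limma or edgeR, while an unadjusted p under 0.05 was found for 2723 genes with limma and 2562 with edgeR. With a difference of at least 1.5 and an adjusted p under 0.05, limma found 1 gene with a higher change in LL and 8 with a lower one, and edgeR 1 and 13. The gene with the higher change was ORG1 (Bradi2g45450), an OBP3-responsive gene of Arabidopsis by its match and chosen, like those below, after its values were seen. It stayed at 20.4 to 32.4 CPM in all 11 LL libraries, and in NG fell from 63.5–155 CPM at ZT20 to 27.5–56.8 CPM at ZT24, a difference of 1.55 ± 0.25 (SE, limma adjusted p = 0.00029).

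ATPRP2 (Bradi3g21030), matched to a proline-rich cell wall protein, had the largest of the lower changes. In LL it fell from 54.3, 63.7 and 63.4 CPM to 21.9 and 16.7 CPM in Bd21 and from 65.1, 121 and 99.4 CPM to 31.6, 26.1 and 20.6 CPM in Bd21-3. In NG it was at 93.9 to 182 CPM at ZT20 and 157 to 232 CPM at ZT24. The difference was −2.05 ± 0.37 (SE, limma adjusted p = 0.00195). A gene matched to RCA (Bradi4g09120), rubisco activase, rose in NG from 8.77–27.0 CPM to 70.3–107 CPM, and in LL lay at 5.23–10.9 CPM and 5.87–16.9 CPM, a difference of −1.78 ± 0.35 (SE, limma adjusted p = 0.00451), which was −1.56 (limma adjusted p = 0.0516) without the 3 libraries that stood apart. Another RCA match (Bradi4g09125) was far higher in LL, with means of 5900 CPM at ZT20 and 5724 CPM at ZT24 in Bd21. In Bd21-3 the means of that gene were 7376 and 6773 CPM. The remaining genes with a lower change in LL were CYP71A22 (Bradi2g19910), ATHSP70 (Bradi2g54570), AT3G24460 (Bradi2g05070) and Bradi1g06696, which has no match, and the H2A and H4 genes above. In the LL libraries compared, CYP71A22 held 0.107 to 1.06 CPM and ATHSP70 0.782 to 3.45 CPM. In NG at ZT24 they held 30.9 to 47.1 and 14.5 to 32.0 CPM. Their differences thus rest on rises in NG, and both were near the floor in LL.

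The other lists held few changes. No gene of the Calvin cycle (21 tested), of dark and sugar starvation (32), of hypoxia and fermentation (25), of jasmonate synthesis and JAZ (21) or of nitrogen and sulfur assimilation (27) was called in LL at the main or the wider limits in either ecotype. Their medians lay between −0.32 and 0.10. Of 50 expansins and xyloglucan enzymes, which loosen cell walls, 42 had negative changes in both ecotypes, against 9375 of 24109 genes tested. Their medians were −0.37 and −0.50. At the wider limits 2 fell in each ecotype but 0 in both, where 0.133% (Bd21), 0.303% (Bd21-3) and 0.0871% (both) of all genes did. Without the 3 libraries that stood apart, 1 fell in Bd21, 2 in Bd21-3 and 1 in both, against 21, 37 and 15 of all 24109 genes.

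Gene names come from the best Arabidopsis match, so paralogs can carry 1 name and share reads, and the library kit does not mark strand, so reads of a gene and its antisense partner cannot be told apart. Each gene had 1 estimate of spread over all 30 groups. Fitted on the 4 LL groups alone, 3 genes rose in both ecotypes (LHY, RVE2 and AT1G42430) and 0 fell.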

How the data were processed

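RNA of aboveground green tissue was sequenced in the study after TruSeq v2 library preparation. The authors aligned the reads of both ecotypes to the Bd21 genome (Bdistachyon_314_v3.0) with HISAT2 2.1.0, used SAMtools 1.12 and HTSeq, merged repeat runs, discarded poorly aligned libraries and normalized with edgeR. The deposited signal values are read counts that the authors scaled by the effective library size (CPM). The 11 libraries used sum to 896561 to 971884, and all their values were whole multiples of 1 read within 0.001 reads. Whole reads were recovered this way in 87 of 89 libraries. The authors' fold changes, adjusted p-values and means in the same file were not used, and 0 columns of per-sample values were left unused. The design had named the unit CPM, and the test planned for it was kept.

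Genes reaching 1 CPM in 3 libraries (24109 of 24467) were tested with limma-trend (limma 3.58.1, R 4.3.3) after conversion to log2(CPM + 1), using all 89 libraries and a term for each of the 30 groups. P-values were two-sided, and the Benjamini-Hochberg adjustment covered every gene tested. The limits on calls (a log2FC of 1.5, an adjusted p under 5e-06 and 15 CPM) are those of the study's methods. P-values measure the spread between these libraries, and counting error is part of it. At 15 CPM a value rests on well over 100 reads, and near 1 CPM on few. Replicate numbers, groups and ZTs came from the labels.

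Of the genes, 19689 have an Arabidopsis match and 8483 a symbol, and 0 identifiers matched the RefSeq gene table. Genes named were those called in both ecotypes with a symbol (up to 12 each way), called members of the 24 gene lists (up to 4 each), all members of the clock lists, and genes called for a difference between treatments or ecotypes, with others said to be chosen after their values were seen. Members and lists were chosen with earlier results of these data known. Alternatives were pseudocounts of 0.25 and 5, other filters, TMM, median of ratios and quantile scaling, no variance trend, fewer groups in the fit, a replicate block, edgeR 4.0.16 (quasi-likelihood, TMM) on the recovered reads, other limits, and each of the 11 LL libraries left out. Wider limits and the omission of 3 libraries were added after seeing the data. The code was tested on simulated data. Python 3.11.15, pandas 2.3.3, numpy 2.4.6, SciPy 1.17.1 and matplotlib 3.10.9 were used.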

Additional observations from a re-analysis of the deposited data

Results flagged for a closer look

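The change from ZT20 to ZT24 differed between low light and submergence, by the test of the difference itself (limma, mean of both ecotypes, log2FC difference of at least 1.5, adjusted p under 5e-06), in 20 genes with a higher and 2 with a lower change in LL. The values that follow are LL changes minus S changes on the log2 scale, and all named genes without a clock role were chosen after their values were seen. In the clock and its close outputs, the difference was 4.194 for LHY, 3.273 for RVE2, 2.7 for LNK1, 2.606 for CDF2, 2.111 for RVE6, 2.067 for BBX19 and 1.626 for LNK2. In the antenna of photosystem II it was 2.892 for LHCB2.3, 2.691 for LHCB1.5 and 2.077 for LHCB5. In starch metabolism it was 2.566 for APS1 (Bradi4g27570), a subunit of ADP-glucose pyrophosphorylase, 2.561 for AT1G42430 and 1.588 for the branching enzyme match SBE2.2 (Bradi5g09170). APS1 went from 11.2, 5.66 and 10.2 CPM to 14.6 and 19.5 CPM in LL and from 28.5, 45.2 and 59.2 CPM to 12.3, 5.70 and 12.3 CPM in S in Bd21, so that its difference holds a fall in S (−2.04 in Bd21, −1.19 in Bd21-3) beside LL changes of 0.88 and 1.02. The SBE2.2 match likewise had LL changes of 0.62 and 0.35 and S changes of −1.33 and −0.88. The other genes with a higher change in LL were ATGPX6 (2.664), AT2G41250 (2.502), Bradi1g06696 (2.457), AT3G14770 (2.243), ABA1 (1.969), CYP79B2 (1.885) and AT4G28300 (1.582). The lower changes were those of APUM7 (−2.657) and of AT4G35160 (Bradi1g47030, −2.268), matched to an O-methyltransferase, which held 0.25 to 3.17 CPM in S and 25.04 to 138 CPM in LL.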

How the results depend on the processing

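No called change reversed under any alternative. The 10 risen genes stayed called in both ecotypes with a pseudocount of 0.25, with other filters, under TMM, median of ratios and quantile scaling, without a variance trend and with edgeR, and 6 of them with a pseudocount of 5. Fitted on the 4 LL groups alone, 4 genes rose and 0 fell in Bd21, 3 and 0 in Bd21-3, and 3 and 0 in both, and on the 10 LL groups 1 fell in Bd21, 7 rose and 1 fell in Bd21-3, and 1 fell in both. The cause was not tested. With an adjusted p under 0.05, 9 fell in Bd21, 17 rose and 29 fell in Bd21-3, 7 fell in both, LL changes against NG were higher in 1 and lower in 8, and against S lower in 12. With a log2FC of at least 1, 23 rose in Bd21, 7 fell in Bd21-3, and LL against S gave 36 higher and 4 lower. With 15 CPM in both groups, 9 rose and 0 fell in Bd21, 7 and 1 in Bd21-3, 0 fell in both, and LL against S gave 11 and 0. With both wider limits, the counts were 48 and 32 in Bd21, 45 and 73 in Bd21-3, 32 and 21 in both, 1 lower for the ecotype difference, 7 and 20 for LL against NG and 68 and 36 for LL against S. At any fold and an adjusted p under 0.05 they were 117 and 97, 233 and 241, 79 and 74, 1 lower, 39 and 53, and 303 and 104. Without the 3 libraries that stood apart, 2 fell in Bd21, 6 rose and 1 fell in Bd21-3, and 6 rose and 1 fell in both. By the mean change of both ecotypes, 16 rose and 8 fell.

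Leaving out each of the 11 LL libraries in turn gave 10 to 16 rises and 1 to 4 falls in Bd21, 8 to 11 and 1 to 3 in Bd21-3, 8 to 10 and 1 to 3 in both, 16 to 19 higher and 2 to 3 lower for LL against S, and 0 for the other differences. No NG or S library was left out. A single fall in both was left without replicate 1 of Bd21 at ZT24 (1 fall in Bd21) or without replicate 3 of Bd21-3 at ZT24. Deviations of same-numbered libraries correlated at −0.78, 0.47 and −0.45 in Bd21-3, and in Bd21 at 0.43 and 0.44 for the 2 numbers that both times share. The same number gave the highest correlation for each of these in Bd21 and for none in Bd21-3. The deviations of the 2 Bd21 libraries at ZT24 mirror each other, so these values cannot decide whether replicate numbers pair the samples. The replicate block gave 10 rises and 2 falls in both. Values near 1 CPM rest on about 10 reads, so falls to that level are the least certain in size.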

Other observations

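Some genes outside the clock rose more in LL than in NG, and were chosen after their values were seen. SBP1 (Bradi2g58677), matched to a selenium-binding protein, went from 116, 96.7 and 129 CPM to 283 and 212.98 CPM in LL in Bd21 and from 47.8, 71.3 and 73.2 CPM to 145, 166 and 192 CPM in Bd21-3. In NG it held 36.7 to 49.3 CPM at ZT20 and 47.6 to 63.4 CPM at ZT24 over both ecotypes, so all LL libraries at ZT24 were above all NG libraries. The LL change exceeded the NG change by 0.93 ± 0.18 (SE, limma adjusted p = 0.00399). Bradi1g48030, which has no Arabidopsis match in the table, rose by 1.05 and 1.19 in LL against −0.22 and −0.00 in NG, a difference of 1.23 ± 0.26 (SE, limma adjusted p = 0.00757). It held 4.33 to 7.83 CPM in all NG libraries at both times.

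Lists with no member called at the main limits could still have a negative median in LL. Of 53 phenylpropanoid and flavonoid genes, 38 had negative changes in both ecotypes, with medians of −0.33 and −0.27, and of 290 ribosomal protein genes 197 did, with medians of −0.17 and −0.15, against 9375 of 24109 genes tested.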
